A study of Mus musculus with 2 samples.

Results

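The genes that code for the constant regions of the T cell receptor chains, with 3 further genes used as marks of gamma-delta T cells, were followed through single cells sorted from mouse lung tumours. The 10 genes were chosen by symbol from the 32285 genes counted: Trac, Trbc1 and Trbc2 of the alpha and beta chains, Trdc of the delta chain, Tcrg-C1, Tcrg-C2 and Tcrg-C4 of the gamma chain, the gamma variable segment Trgv2, and Cd163l1 and Sox13. Counts were unique molecular identifiers (UMIs), each standing for 1 captured transcript. A barcode was kept as a cell when it had at least 500 detected genes and at most 10% mitochondrial UMIs, which left 12003 of 12204 barcodes in one library and 13451 of 13607 in the other.

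Both libraries came from tumours of KL mice, recipients with floxed alleles of Lkb1 and a second tumour allele that Cre switches on. The recipients were lethally irradiated and rebuilt with donor marrow, which was Tmem173 fl/fl in the group named WTKL and Tmem173 fl/fl with Lyz2-Cre in the group named LYZKL. Tmem173 codes for STING, a sensor adaptor of cytosolic DNA signalling, and Lyz2-Cre acts mainly in cells of the myeloid lineage. Cells sorted as CD4pos and CD8pos were taken 8 weeks after intranasal Ad-Cre. Tamoxifen is named in the WTKL treatment label and not in that of LYZKL. Each group was 1 library, and the number of mice behind it is not given in the sources used here. No test between the groups was therefore possible, and every interval below is a 95% interval that covers counting error only.

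T cells carry a receptor of alpha and beta chains or one of gamma and delta chains, each built by joining variable and joining segments to a constant gene. The delta constant gene lies within the alpha locus, between its variable and joining segments, so joining an alpha chain deletes delta from that chromosome. The gamma loci lie on another chromosome, are not deleted in this way, and are often rearranged in alpha-beta T cells too. Gamma-delta T cells of the lung and skin are a known early source of interleukin 17, and Cd163l1, a scavenger receptor, and Sox13, a transcription factor, are used as marks of that lineage.

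In the GRCm38 annotation of GENCODE M21, Trdc lies at chr14:54142851-54148868 and Trac at chr14:54220521-54224206, both on the plus strand. Trbc1 lies at chr6:41538218-41539881 and Trbc2 at chr6:41546730-41548352. Tcrg-C1 lies at chr13:19214103-19217024, Tcrg-C2 at chr13:19304649-19307551 and Tcrg-C4 at chr13:19344558-19352756, with Tcrg-C2 on the minus strand and the others on the plus strand. Trgv2 lies at chr13:19336573-19337167, on the minus strand like Tcrg-C2. The coding part of the last exon of each gamma constant gene is shown because the results turn on telling these genes apart, and it codes for the end of the chain that crosses the membrane. Capitals mark the bases that differ from Tcrg-C1, of which Tcrg-C2 had 4 and Tcrg-C4 had 44 over 140 bases.
Tcrg-C1: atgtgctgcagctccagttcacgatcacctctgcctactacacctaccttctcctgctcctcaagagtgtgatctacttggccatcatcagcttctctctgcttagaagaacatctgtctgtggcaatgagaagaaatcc
Tcrg-C2: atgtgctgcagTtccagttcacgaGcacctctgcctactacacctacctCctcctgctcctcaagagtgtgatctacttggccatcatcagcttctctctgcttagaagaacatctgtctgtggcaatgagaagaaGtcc
Tcrg-C4: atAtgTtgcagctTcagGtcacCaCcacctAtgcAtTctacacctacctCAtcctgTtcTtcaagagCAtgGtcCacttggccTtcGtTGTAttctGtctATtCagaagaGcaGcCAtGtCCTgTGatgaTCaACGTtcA
These stretches lie at chr13:19216476-19216615 in exon 3 of Tcrg-C1, at chr13:19305063-19305202 in exon 3 of Tcrg-C2 and at chr13:19352201-19352340 in exon 4 of Tcrg-C4.

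Because the reads are tags from the 3' end, the last 500 bases of each transcript were compared in windows of 91 bases. Of the 410 windows of Tcrg-C1, 14 (3.41%) also occurred in Tcrg-C2, and Tcrg-C4 shared none with either. Trbc1 and Trbc2 shared 32 of 410 windows (7.80%), and the first 120 bases of their first constant exon were identical. A tag from a shared window cannot be given to 1 gene, so levels of these close copies are uncertain to that extent. Tags are not scaled for transcript length, and levels are therefore compared within a gene across cells.

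The libraries held 77181312 UMIs in WTKL and 93584629 in LYZKL, with medians of 4840 and 5327 UMIs per kept cell. The labels state 6609 and 7202 cells, fewer than the barcodes deposited, and 100 barcodes occurred in both libraries (94 of them kept in both). A UMI of Cd3d, Cd3e or Cd3g was found in 82.8% of kept WTKL cells and 78.7% of kept LYZKL cells. Cells with at least 5 UMIs of a B cell, neutrophil or macrophage marker list made up 26.6% and 28.7%, so the sorted libraries were not T cells alone. Those marked cells were used to show how often free RNA or joined cells put a T cell transcript into a barcode.

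Over all kept cells the alpha and beta constant genes were abundant, the gamma constant genes intermediate and the delta constant gene rare. Trac had 56374 UMIs in WTKL and 55620 in LYZKL and was found in 77.4% and 72.5% of kept cells. Trbc2 had 58326 and 64550 UMIs, and Trbc1 28819 and 38770. Tcrg-C1 was found in 16.4% and 13.0% of kept cells, Tcrg-C2 in 12.5% and 19.0%, Trgv2 in 9.42% and 15.2%, and Tcrg-C4 in 1.97% and 1.74%. Trdc was found in 81 cells of WTKL and 132 of LYZKL, which is 0.675% and 0.981%. Cd163l1 was found in 131 and 234 cells. Sox13 was close to undetected, with 11 UMIs in WTKL and 8 in LYZKL.

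The main question was how often alpha-beta and gamma-delta genes were read from the same cell among cells with a UMI of Cd4, Cd8a, Il17a or Xcl1. Cd4 and Cd8a code for the coreceptors of helper and cytotoxic T cells, Il17a for interleukin 17A and Xcl1 for a chemokine of cytotoxic T cells and NK cells. The Cd4-positive cells numbered 5427 in WTKL and 5353 in LYZKL, the Cd8a-positive cells 2685 and 3549, the Il17a-positive cells 3579 and 2942, and the Xcl1-positive cells 589 and 847. These groups overlap, since 66.3% and 71.3% of Il17a-positive cells also had Cd4, and 59.4% and 65.2% of Xcl1-positive cells also had Cd8a. A cell was counted as co-detecting when it had at least 1 UMI of Trac, Trbc1 or Trbc2 and at least 1 of the gamma-delta constant genes Trdc, Tcrg-C1, Tcrg-C2 or Tcrg-C4.

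Co-detection was common in all 4 groups, and the clearest difference between the libraries was in Cd8a-positive cells. There, 1226 of 2685 WTKL cells (45.7%, 43.8 to 47.6) and 2095 of 3549 LYZKL cells (59.0%, 57.4 to 60.7) held both kinds of gene. The share was 1.29 times as high in LYZKL (1.23 to 1.36), although LYZKL cells of this group were shallower, with a median of 5638 UMIs against 6952. Each cell was also thinned to 2000 UMIs, which left out 43 and 103 Cd8a-positive cells below that depth, and the gate was applied after thinning. The shares were then 30.9% and 38.1% of the 1549 and 2205 cells that kept a Cd8a UMI.

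In Cd4-positive cells the shares were close, at 1803 of 5427 (33.2%, 32.0 to 34.5) in WTKL and 1831 of 5353 (34.2%, 32.9 to 35.5) in LYZKL, a ratio of 1.03 (0.976 to 1.09). After thinning, the order turned, with 20.8% in WTKL and 17.8% in LYZKL, and the LYZKL cells were the deeper ones before thinning (medians of 5166 and 6713 UMIs). Il17a-positive cells behaved likewise, with 47.1% (45.5 to 48.8) and 49.1% (47.3 to 50.9) before thinning and 33.3% and 29.2% after it, at median depths of 5410 and 7224 UMIs. In Xcl1-positive cells 278 of 589 (47.2%, 43.1 to 51.3) and 466 of 847 (55.0%, 51.6 to 58.4) co-detected, and thinning again turned the order, to 31.2% and 29.7%, here with WTKL the deeper library (6457 and 6087 UMIs). Thinning left out 103 and 76 Cd4-positive, 92 and 65 Il17a-positive and 16 and 18 Xcl1-positive cells for their depth. Many more lost their UMI of the gate gene. The thinned shares concern the 3137 and 2907 Cd4-positive, 2433 and 1869 Il17a-positive and 292 and 458 Xcl1-positive cells that kept it. Of the 4 groups, Cd8a-positive cells alone kept the same direction with and without thinning.

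The same count in cells that should lack receptor transcripts gave the background. Co-detection was found in 13.7% of 760 and 14.7% of 497 B-marked cells, at median depths of 3857.5 and 4031 UMIs. It was found in 8.99% and 10.3% of neutrophil-marked cells, at medians of 3798 and 4133 UMIs, and in 26.2% and 25.0% of the much deeper macrophage-marked cells, at medians of 12641 and 11166.5 UMIs. After thinning these shares lay between 3.92% and 8.91%, below the thinned share of every one of the 4 groups. The gate genes themselves were also found in marked cells, Cd4 in 18.8% and 12.5% of B-marked cells, Il17a in 21.1% and 13.1%, Cd8a in 13.6% and 16.1% and Xcl1 in 4.87% and 5.03%. Of the gated cells, 8.31% to 25.8% carried a B cell, neutrophil or macrophage mark, and the part of those cells and of free RNA in the shares was not tested.

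**Figure D1:**
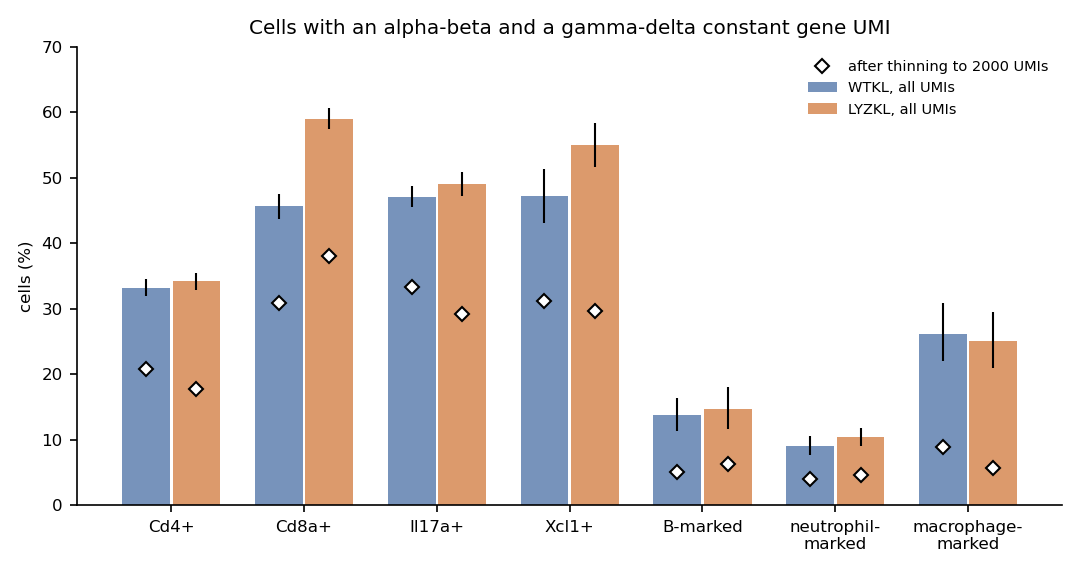
Share of cells with at least 1 alpha-beta and at least 1 gamma-delta constant gene UMI, in percent, for the 4 gated groups and for marked cells of other types in WTKL and LYZKL. Bars give all kept cells with 95% exact binomial intervals. Diamonds give the share after thinning each cell to 2000 UMIs, in the gated groups among cells that kept a UMI of the gate gene. Cd8a-positive cells stand at 45.7% and 59.0%, and the marked cells at 8.99% to 26.2%.

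Cells with gamma-delta genes and no alpha-beta gene were almost missing from the gated groups. They numbered 6 in WTKL and 3 in LYZKL among Cd4-positive cells, 6 and 9 among Cd8a-positive cells, 7 and 12 among Il17a-positive cells, and 0 and 1 among Xcl1-positive cells. In all kept cells there were 52 (0.433%) and 85 (0.632%). Alpha-beta genes with no gamma-delta gene were found in 65.4% and 64.5% of Cd4-positive cells and in 52.4% and 39.0% of Cd8a-positive cells.

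No gated cell of either library had Trdc without any of Trac, Trbc1 and Trbc2. Taking 3 counts of the total as the limit in place of a Clopper-Pearson bound, a count of 0 allows a share of up to 0.0553% in WTKL and 0.0560% in LYZKL for Cd4-positive cells, 0.112% and 0.0845% for Cd8a-positive cells, 0.0838% and 0.102% for Il17a-positive cells, and 0.509% and 0.354% for Xcl1-positive cells. These limits concern cells with a UMI of Trdc, not cells that express it. Over all kept cells there were 0 such cells in WTKL and 4 in LYZKL, of which 2 were B-marked and 2 neutrophil-marked.

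Gamma constant genes were not read less often from cells with Trac. Among Cd8a-positive cells, Trac was found in 96.6% and 94.7% of those with Tcrg-C2 and in 90.8% and 87.7% of those without it, at similar depth (medians of 6720 against 7049 UMIs in WTKL and 5592.5 against 5679 in LYZKL). Among Il17a-positive cells, Trac was found in 97.1% and 97.5% of cells with Tcrg-C1 and in 85.0% and 82.2% of cells without it. The latter held more marked cells, 22.8% against 9.91% in WTKL and 22.0% against 8.01% in LYZKL, and their part in the difference was not tested.

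Trac codes for the alpha chain constant region that every alpha-beta receptor carries. Its level, in CPM (UMIs of the gene per 1000000 UMIs of the cells compared), was 990 in WTKL and 810 in LYZKL among Cd4-positive cells, a log2 ratio of -0.29 (-0.31 to -0.27). It was 683 and 604 among Cd8a-positive cells (-0.18), 846 and 728 among Il17a-positive cells (-0.22) and 747 and 633 among Xcl1-positive cells (-0.24). Trac was thus lower in LYZKL in each gated group, by less than 1.5-fold. It was also lower in LYZKL in B-marked cells (288 and 233 CPM), neutrophil-marked cells (259 and 208) and macrophage-marked cells (212 and 163).

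Trbc1 and Trbc2 code for the 2 interchangeable constant regions of the beta chain. Trbc1 stood at 463 and 560 CPM in Cd4-positive cells, a log2 ratio of 0.27 (0.25 to 0.30), and at 419 and 516 CPM in Il17a-positive cells (0.30, 0.27 to 0.34). In Cd8a-positive cells it stood at 416 and 440 CPM (0.08, 0.04 to 0.12). Trbc2 differed less, with 1032 and 982 CPM in Cd4-positive cells and 655 and 629 in Cd8a-positive cells. The mix of the beta genes therefore differed between the libraries: there were 2.23 Trbc2 UMIs per Trbc1 UMI in WTKL and 1.75 in LYZKL among Cd4-positive cells, and 1.57 and 1.43 among Cd8a-positive cells. In neutrophil-marked cells the same ratio was 1.89 and 1.59, and in B-marked cells 1.83 and 1.75.

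The beta genes were also read together. Both were found in 51.8% and 58.4% of Cd4-positive cells and in 57.9% and 57.0% of Cd8a-positive cells. The shared windows given above concern this count, and how the counting treated tags that match both genes is not given in the sources used here.

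**Figure D2:**
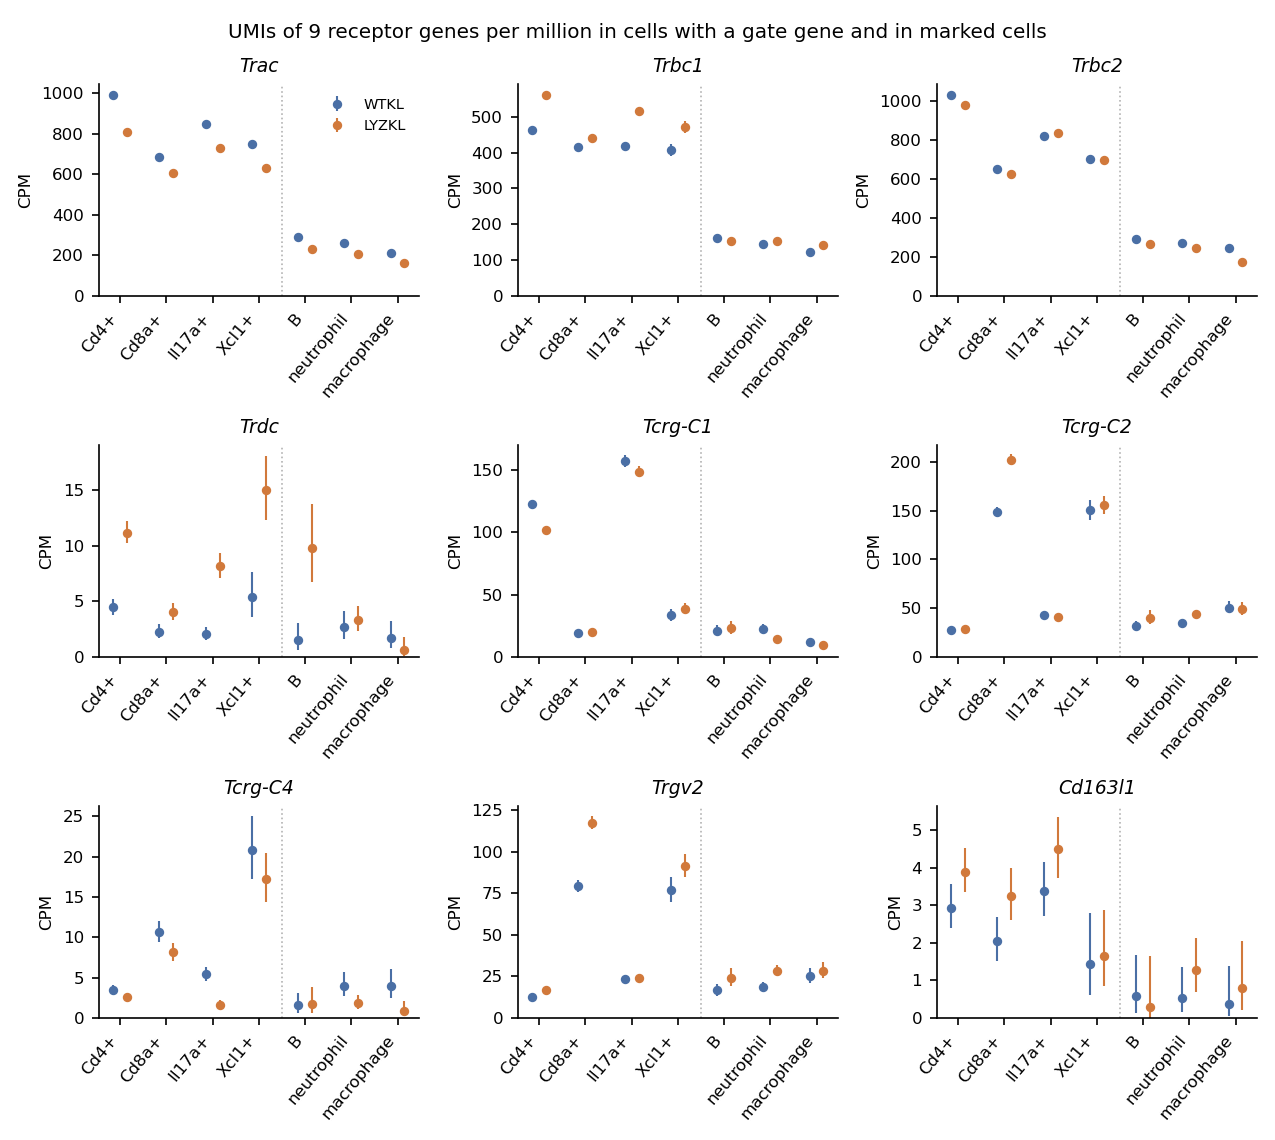
Level of 9 of the genes in CPM in the 4 gated groups and the 3 kinds of marked cells of WTKL and LYZKL, with 95% Poisson intervals. Tcrg-C1 is highest in Il17a-positive cells (157 and 148 CPM), Tcrg-C2 in Cd8a-positive and Xcl1-positive cells (148 and 202, 150 and 156 CPM), and Trac, Trbc1 and Trbc2 stand in all gated groups above the marked cells.

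Few of the receptor genes differed by 1.5-fold or more between the libraries, among genes that reached 5 CPM in at least 1 of them. In Cd4-positive cells 1 of the 7 receptor genes at that level was higher in LYZKL, Trdc, and 0 were lower, beside 1.70% higher and 2.29% lower of 9840 genes. In Cd8a-positive cells it was 0 of 7 in either direction, beside 4.37% higher and 2.38% lower of 9965 genes. In Il17a-positive cells 1 of 8 was higher, Trdc, and 1 lower, Tcrg-C4, beside 1.74% and 3.31% of 9972 genes. In Xcl1-positive cells 1 of 8 was higher, again Trdc, and 0 lower, beside 5.32% and 3.40% of 10092 genes. The median log2 ratio of the receptor genes was 0.07, 0.07, -0.02 and 0.13 in these groups, beside 0.00, 0.09, 0.02 and 0.06 for all genes tested. Trdc in Cd4-positive and Il17a-positive cells, and Tcrg-C4 in Il17a-positive cells, reached 5 CPM in 1 library alone, so their counts here had to come from a difference.

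To place the gamma genes more finely, the kept cells without a B cell, neutrophil or macrophage mark and with a Cd3 UMI were split into disjoint sets by Foxp3, Il17a, Cd4, Cd8a and Xcl1, in that order. Among these, Tcrg-C1 was highest in the Il17a-positive set, with 218 CPM in 2771 WTKL cells and 189 CPM in 2265 LYZKL cells. The Cd4-positive Cd8a-negative set followed at 51.5 and 47.9 CPM, near the 48.5 and 54.5 CPM of the small Xcl1-positive set with neither coreceptor (11 and 21 UMIs). Foxp3-positive cells, which hold regulatory T cells, stood at 18.4 and 23.9 CPM, near the 21.2 and 23.4 CPM of B-marked cells. The Cd8a-positive Xcl1-negative set was below the B-marked cells, at 9.33 and 9.75 CPM.

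Tcrg-C1 was found in 44.9% and 45.3% of the cells of the Il17a-positive set, and in 28.4% and 24.6% after thinning. In B-marked cells it was found in 8.55% and 6.24%. Within all Il17a-positive cells, those with Cd4 and without Cd8a had the most Tcrg-C1, at 223 and 188 CPM, with a UMI in 50.2% and 49.5% of them. Il17a-positive cells with neither coreceptor had 92.3 and 61.0 CPM, in 24.2% and 15.7%. The cells with neither coreceptor were to a large part not T cells by their markers: 35.7% and 42.7% carried a B cell, neutrophil or macrophage mark and 72.6% and 65.5% had a Cd3 UMI, at medians of 4245 and 4876 UMIs. Of those with Cd4 and without Cd8a, 8.36% and 6.65% were marked and 99.1% and 99.2% had a Cd3 UMI, at medians of 5400 and 7672 UMIs. The part of marked cells and depth in the higher Tcrg-C1 of the latter was not tested. Between the libraries it differed little in Il17a-positive cells, at 157 and 148 CPM (log2 ratio -0.08, -0.14 to -0.02), and was lower in LYZKL in Cd4-positive cells, at 122 and 102 CPM (-0.27, -0.33 to -0.21).

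**Figure D3:**
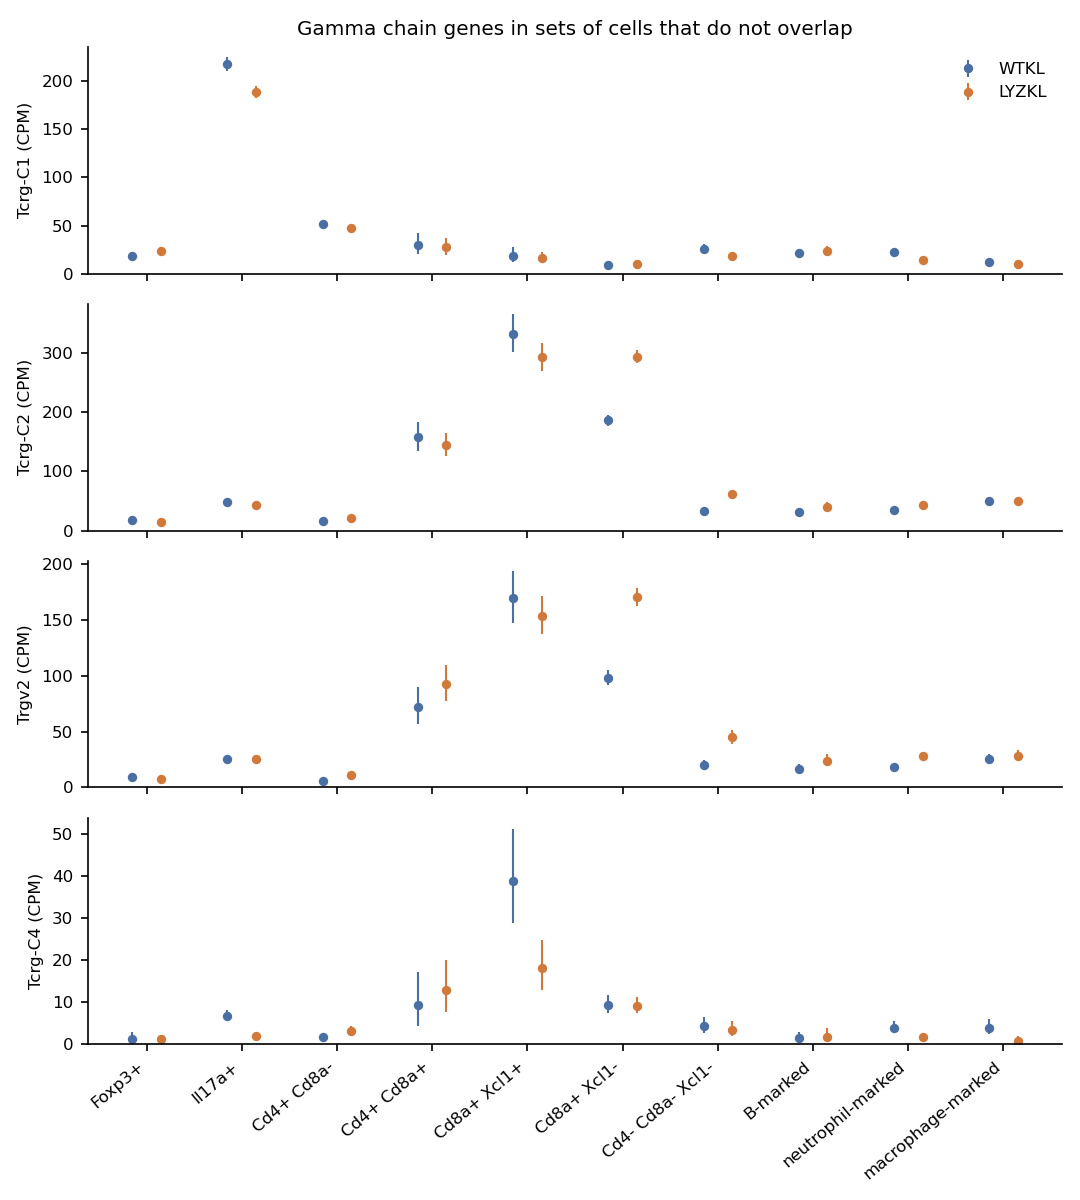
Level of Tcrg-C1, Tcrg-C2, Trgv2 and Tcrg-C4 in CPM over 10 disjoint sets of cells, with 95% Poisson intervals, in WTKL and LYZKL. Tcrg-C1 peaks in the Il17a-positive set (218 and 189 CPM), while Tcrg-C2 and Trgv2 peak in the Cd8a-positive sets.

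Tcrg-C2 took the opposite place. It stood at 331 and 292 CPM in the Cd8a-positive Xcl1-positive set (171 and 336 cells), and at 186 and 293 CPM in the Cd8a-positive Xcl1-negative set (1290 and 1894 cells). The set with both coreceptors followed at 158 and 144 CPM. It was low in Foxp3-positive cells, at 18.2 and 14.1 CPM, below the 31.2 and 40.3 CPM of B-marked cells. Per UMI of Tcrg-C1 there were 7.71 and 10.0 UMIs of Tcrg-C2 in Cd8a-positive cells, 0.277 and 0.278 in Il17a-positive cells, and 1.47 and 1.72 in B-marked cells. Both genes together were found in 3.17% and 3.83% of Cd8a-positive cells and 4.61% and 4.18% of Il17a-positive cells. Of the Cd8a-positive cells, 210 and 241 had Tcrg-C1, 1069 and 1946 had Tcrg-C2, and 85 and 136 had both. Of the Il17a-positive cells, 1413 and 1149 had Tcrg-C1, 414 and 394 had Tcrg-C2, and 165 and 123 had both. Whether the 2 genes avoid each other within cells was not tested.

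In Cd8a-positive cells, Tcrg-C2 was the gamma constant gene that was higher in LYZKL. Its level was 148 CPM in WTKL and 202 CPM in LYZKL, a log2 ratio of 0.45 (0.39 to 0.51), with a UMI in 39.8% and 54.8% of cells. Tcrg-C1 was near its level in B-marked cells here, at 19.2 and 20.1 CPM. Trac with Tcrg-C2 was found in 38.5% and 51.9% of these cells, and in 22.8% and 29.3% when the gate was applied after thinning, whereas Trac with Tcrg-C1 was found in 7.49% and 6.71%. In the Cd8a-positive Xcl1-negative set the log2 ratio was 0.66 (0.57 to 0.75). In the Cd8a-positive Xcl1-positive set it was -0.18, with WTKL the higher library. For the Cd8a-positive sets taken as one, Tcrg-C2 levels were 206 CPM in WTKL and 293 CPM in LYZKL (log2 ratio 0.51, 0.43 to 0.59). The 5 NK cell markers Ncr1, Klrb1c, Gzma, Klra8 and Klra4 summed to 3133 and 1384 CPM in the Cd8a-positive Xcl1-negative set, with 0 and 2 of them at 0 UMIs, and their part in the difference was not tested.

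Trgv2 is a variable segment on the same strand as Tcrg-C2, and the pair was read from the same cells. Among Cd8a-positive cells, Trgv2 was found in 65.8% and 67.0% of cells with Tcrg-C2 and in 10.1% and 19.1% of cells without it. In B-marked cells the same shares were 54.7% and 55.6% against 1.56% and 3.39%, so the pair was also read together there. Trgv2 stood at 79.1 and 117 CPM in Cd8a-positive cells, a log2 ratio of 0.57 (0.49 to 0.65). In the Cd8a-positive Xcl1-negative set it stood at 98.0 and 170 CPM (0.80, 0.68 to 0.92). In the Cd8a-positive sets together Trgv2 was the 1 receptor gene of 7 past 1.5-fold, and it was higher in LYZKL, beside 9.06% of 9774 genes higher and 3.38% lower.

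Tcrg-C4, the most divergent of the gamma constant genes, was scarce. It had 144 UMIs in WTKL and 44 in LYZKL among Il17a-positive cells, or 5.41 and 1.62 CPM, a log2 ratio of -1.74 (-2.26 to -1.24). In Cd8a-positive cells it stood at 10.7 and 8.13 CPM, and in the Cd8a-positive Xcl1-positive set at 39.0 and 18.2 CPM (-1.10, -1.74 to -0.46). The small Xcl1-positive set with neither coreceptor (50 and 72 cells) had 0 and 18 UMIs. B-marked cells had 1.54 and 1.78 CPM and neutrophil-marked cells 3.98 and 1.81, so the LYZKL level in Il17a-positive cells was near that of these marked cells. In the Il17a-positive cells the 5 NK cell markers summed to 413 CPM in WTKL, with none at 0, and to 128 CPM in LYZKL, with 2 at 0. The 3 plasma cell markers summed to 1976 and 813 CPM, and the part of neither list was tested.

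Among the other variable segments, the gamma ones other than Trgv2 were rare. Over all kept cells Trgv2 had 2335 and 4000 UMIs, while Tcrg-V4 had 162 and 147, Tcrg-V1 61 and 57, and Tcrg-V7 47 and 40. Tcrg-V3 (45 and 24 UMIs) and Trdv1 (41 and 28) were level in the fifth place. Tcrg-V4, which lies upstream of Tcrg-C1, was found in 5.59% and 6.70% of Il17a-positive cells with Tcrg-C1 and in 1.06% and 0.558% of those without it. The 6 Trdv symbols summed to 1.01 and 0.664 CPM over all kept cells, against 37.3 and 33.5 CPM for the 128 Trav symbols and 35.0 and 46.0 CPM for the 7 gamma variable symbols.

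Trdc was rare. Of the 81 WTKL and 132 LYZKL cells with a Trdc UMI, 16 and 48 had Foxp3, and 73 and 121 had Trac. Trdc was higher in LYZKL in Cd4-positive and Il17a-positive cells. In Cd4-positive cells it had 159 UMIs in WTKL and 501 in LYZKL, or 4.45 and 11.2 CPM, a log2 ratio of 1.33 (1.07 to 1.59). In Il17a-positive cells it had 55 and 222 UMIs (2.07 and 8.17 CPM, 1.98, 1.55 to 2.44), and in Xcl1-positive cells 30 and 110 UMIs (5.34 and 15.0 CPM). These UMIs came from 48 and 88 Cd4-positive, 27 and 46 Il17a-positive and 9 and 12 Xcl1-positive cells. The intervals of the Trdc ratios count each UMI as independent, so they are too narrow where few cells hold many UMIs. Cd8a-positive cells had 54 and 110 UMIs, or 2.24 and 4.01 CPM, a log2 ratio of 0.84 that fell to 0.08 with likely doublets removed and to 0.04 with at least 2 Cd8a UMIs required. The share of cells with Trdc was not higher in LYZKL in the last 2 groups, at 0.708% and 0.507% of Cd8a-positive cells and 1.53% and 1.42% of Xcl1-positive cells. The Trdc level in B-marked cells also differed, with 8 and 33 UMIs, or 1.54 and 9.77 CPM. These UMIs came from only 3 and 6 cells, with up to 6 and 13 in a cell. In Il17a-positive cells the Trdc level of LYZKL was below that of its B-marked cells, a comparison that rests on those few cells. Requiring at least 2 Il17a UMIs lowered the log2 ratio in Il17a-positive cells to 0.91, and requiring at least 2 Xcl1 UMIs lowered that in Xcl1-positive cells to 0.20.

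The Foxp3-positive set held the most Trdc UMIs of any disjoint set. It held 98 of the 259 Trdc UMIs in WTKL (661 cells) and 402 of the 694 in LYZKL (779 cells). Its levels were 21.5 and 59.8 CPM, a log2 ratio of 1.47 (1.15 to 1.81), with an interval that again counts each UMI as independent. There Trdc was found in 14 cells (2.12%) and 43 cells (5.52%), all of which had Trac, and in 1.85% and 4.95% after thinning. Trdc was the 1 receptor gene of 7 past 1.5-fold in this set, and it was higher in LYZKL, beside 2.42% of 9789 genes higher and 4.94% lower. In the Cd8a-positive sets the order was the reverse, with 18 and 6 UMIs in the Xcl1-positive and 15 and 3 in the Xcl1-negative set. The set with both coreceptors had 0 and 0. These differences rest on few UMIs.

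Most Trdc UMIs came from cells with several of them. Cells with at least 3 Trdc UMIs numbered 24 in WTKL and 76 in LYZKL and held 73.0% and 90.2% of all Trdc UMIs, with up to 17 and 23 in a cell. Of these, 22 (91.7%, 73.0 to 99.0) and 72 (94.7%, 87.1 to 98.5) had Trac, with medians of 5 and 8 Trac UMIs. Foxp3, the transcription factor of regulatory T cells, was found in 13 (54.2%, 32.8 to 74.4) and 44 (57.9%, 46.0 to 69.1) of them, and Cd4 in 13 and 56. Any of the gamma constant genes was found in 8 (33.3%) and 20 (26.3%). Cells with several Trdc UMIs thus had Trac nearly always and a gamma constant gene in the minority, and 6 and 7 of them carried a B cell, neutrophil or macrophage mark.

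**Figure D4:**
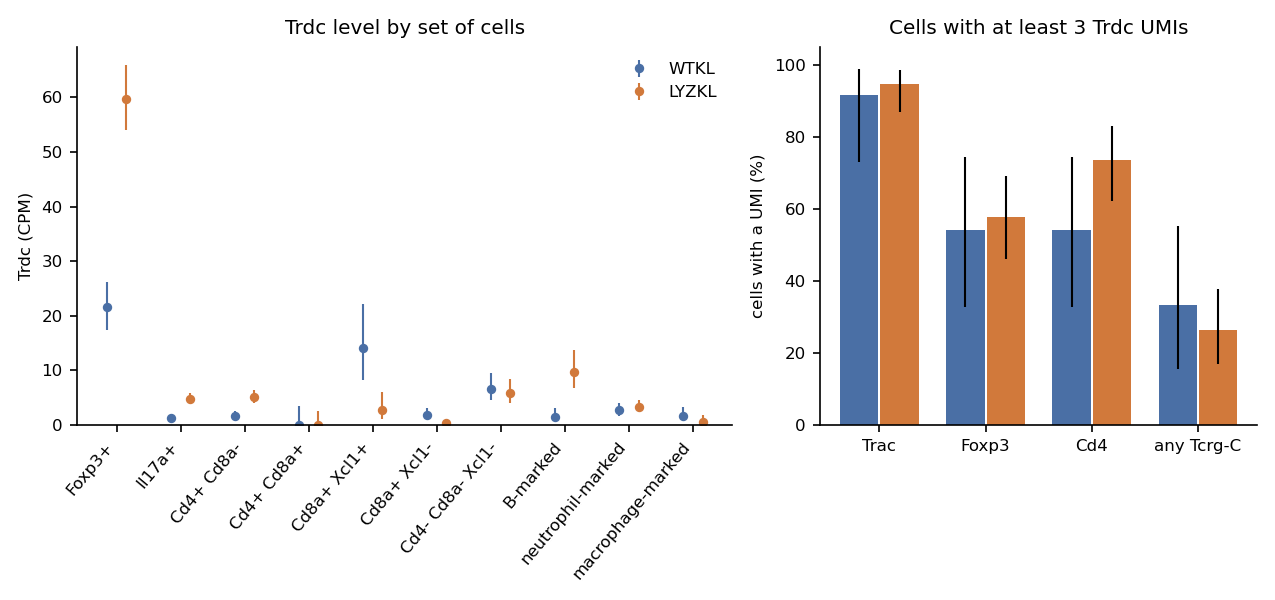
Left, Trdc level in CPM by set of cells with 95% Poisson intervals; right, share of the cells with at least 3 Trdc UMIs (24 in WTKL, 76 in LYZKL) that had Trac, Foxp3, Cd4 or any gamma constant gene, with 95% exact binomial intervals. The Foxp3-positive set stands at 21.5 and 59.8 CPM, and Trac was found in 91.7% and 94.7% of the cells. The Poisson intervals count each UMI as independent.

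The variable segments of these cells were not evenly drawn, a pattern looked at after the values were seen. Of the 40 LYZKL cells of the Foxp3-positive set with at least 3 Trdc UMIs, 18 (45.0%, 29.3 to 61.5) had Trav21-dv12, a segment that can serve either the alpha or the delta chain. Only 5 of the 736 LYZKL cells of that set without Trdc had it. Trav12-1 was found in 12 of the 40 and 3 of the 736, and Trbv20 in 12 of the 40 and 10 of the 736. In WTKL, Trav21-dv12 was found in 3 of 11 such cells and in 1 of 647 without Trdc, Trav12-1 also in 3 of 11 and 1 of 647, and Trbv20 in 1 of 11 and 12 of 647. Over all 76 LYZKL cells with at least 3 Trdc UMIs, Trav21-dv12 and Trbv20 were found together in 7, and Trav21-dv12 and Trav12-1 together in 7. No clonotypes were used here, so whether these cells were related was not tested.

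Cd163l1 and Sox13, the lineage marks that are not receptor genes, gave little signal. Cd163l1 stayed below 5 CPM in all 4 groups, at 3.38 and 4.49 CPM in Il17a-positive cells and 2.94 and 3.90 in Cd4-positive cells, against 0.577 and 0.296 in B-marked cells. It was found in 3.68% and 4.96% of Il17a-positive cells with Tcrg-C1, and in 0.970% and 2.23% of those without it. Sox13 had 2 UMIs in WTKL and 3 in LYZKL among Il17a-positive cells, 0 and 2 among Cd8a-positive cells, 0 and 0 among Cd4-positive cells and 0 and 1 among Xcl1-positive cells.

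A further 5 lists of related genes were set beside the receptor genes. Between the libraries, none of the 11 measured genes of the CD3 and proximal signalling list was past 1.5-fold in Cd4-positive, Cd8a-positive, Il17a-positive or Xcl1-positive cells. In Cd8a-positive cells, 3 of 8 genes of the CD8 coreceptor and residency list were higher in LYZKL and 0 lower, beside the shares of all genes given above. They were the integrins Itga1 (68.5 and 131.5 CPM) and Itgae (95.8 and 175) and the chemokine receptor Cxcr6 (142 and 268). Of the NK receptor and interferon list, 2 of 13 were higher there, Klrk1 (135 and 268 CPM), which codes for the activating receptor NKG2D, and Ifng (200 and 306). In Il17a-positive cells, 1 of 11 genes of the gamma-delta 17 list was higher in LYZKL and 3 were lower. Il23r, the interleukin 23 receptor, stood at 104 and 159 CPM, and Il17f at 223 and 147.

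Within each library, the Il17a-positive cells with Tcrg-C1 had more of the gamma-delta 17 list than those without it. In WTKL 8 of 11 measured genes were at least 1.5-fold higher and 0 lower, beside 5.46% and 9.35% of all genes, and in LYZKL 7 of 10 and 0, beside 4.11% and 10.4%. The median log2 ratio of the list was 1.00 and 0.90, beside 0.09 and 0.07 for all genes. Il1r1, an interleukin 1 receptor, stood at 107 and 234 CPM in WTKL and 143 and 292 in LYZKL. 5830411N06Rik, a scavenger receptor gene related to Cd163l1, stood at 17.3 and 61.1 CPM in WTKL and 13.7 and 25.5 in LYZKL. Il17a, the gate gene, stood at 1157 and 2916 CPM and at 1221 and 2405.

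The same cells had less of the NK receptor and interferon list, with 10 of 12 genes at least 1.5-fold lower in either library. Klrd1, which codes for CD94, stood at 83.1 without and 27.2 CPM with Tcrg-C1 in WTKL and at 64.3 and 25.7 in LYZKL. The adaptors Tyrobp and Fcer1g were among them and are also made by myeloid cells, and marked cells were more frequent without Tcrg-C1, as given above. All 11 measured genes of the CD3 list were higher with Tcrg-C1 in both libraries, 1 of them past 1.5-fold in each. Cd4 was found in 83.9% of cells with and 54.8% without Tcrg-C1 in WTKL, and in 89.5% and 59.6% in LYZKL. Cells with Tcrg-C1 were somewhat deeper, at medians of 5505 against 5356.5 UMIs in WTKL and 8233 against 6588 in LYZKL. The part of depth and of marked cells was not tested.

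In the Cd8a-positive sets, which hold no marked cells, cells with Tcrg-C2 had more of the NK receptor and residency lists. Of the NK receptor and interferon list, 9 of 13 genes were at least 1.5-fold higher in WTKL and 3 of 13 in LYZKL, beside 14.6% and 6.95% of all genes. None was lower by that much in either, beside 6.49% and 5.08% of all genes. Klrk1 stood at 129 without and 300 CPM with Tcrg-C2 in WTKL, and at 309 and 466 in LYZKL. Of the CD8 coreceptor and residency list, 4 of 8 and 3 of 8 were higher, among them Itgae, the integrin of resident cells in epithelium, at 62.0 and 188.5 CPM in WTKL and 150 and 282 in LYZKL. Cxcr6 stood at 88.1 and 267 CPM in WTKL and at 267 and 437 in LYZKL. The summed level of Xcl1 was lower with Tcrg-C2, at 409 and 150 CPM in WTKL and 601 and 330 in LYZKL. The share of cells with an Xcl1 UMI was not lower. It was found in 100 of 603 WTKL cells with Tcrg-C2 and 71 of 858 without it. In LYZKL it was found in 211 of 1278 and 125 of 952. Cells with Tcrg-C2 were the shallower ones in WTKL, at medians of 5040 against 6109.5 UMIs, and close in LYZKL, at 4685 against 4633.5, and the part of depth was not tested.

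**Figure D5:**
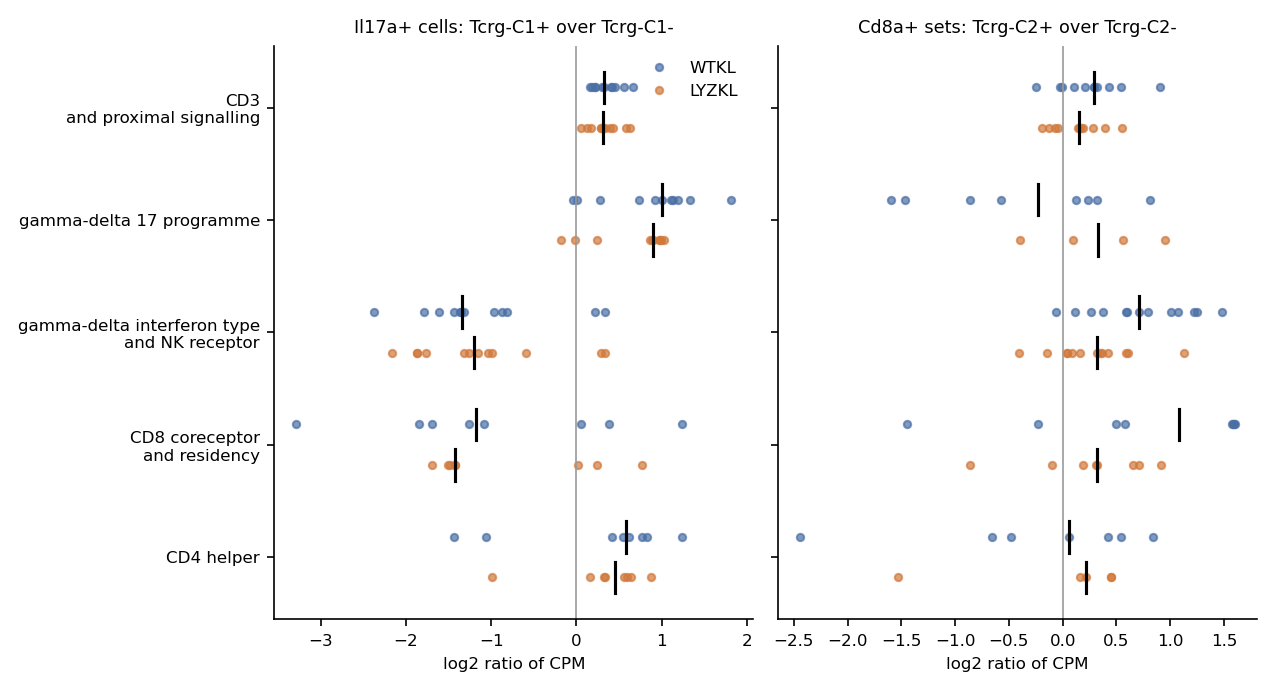
Log2 ratio of each list gene between cells with and without Tcrg-C1 in the Il17a-positive cells and between cells with and without Tcrg-C2 in the Cd8a-positive sets, in WTKL and LYZKL, with a black bar at the median of each list. The gamma-delta 17 list lies mostly above 0 with Tcrg-C1 (medians of 1.00 and 0.90), and the NK receptor and interferon list mostly above 0 with Tcrg-C2.

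The genes whose levels ran most like 3 of the receptor genes were found by Pearson's r of log2(CPM + 1) over the 13 disjoint sets of both libraries, 26 points in all. The points share their 2 libraries and the depth of each, so r is a description. For Trac the closest were Sh2d1a (0.98), an adaptor of lymphocyte signalling, and Lat (0.98), the scaffold below the receptor, then Nt5c3b, Tle5 and Sept1 (each 0.95). For Tcrg-C2 they were Nkg7 (0.96), of cytotoxic granules, Cd8b1 (0.94), the CD8 beta chain, Wdr95 (0.94), Jaml (0.92) and Ctsw (0.91). For Trdc none came as close, the first being Ankrd55 (0.73), Lrp10 (0.70) and Gm29114 (0.70), followed by Tmem158 (0.69) and Ncmap (0.68).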

How the data were processed

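The deposited files hold raw UMI counts per gene and barcode for 2 libraries of 10x Chromium 3' tags, made by the authors; the submitters' processing notes name Cell Ranger 6.1.2 and the mm10 build. Gene and barcode names come from separate files. Kept barcodes had at least 500 detected genes and at most 10% mitochondrial UMIs, and doublets were kept. Levels are summed UMIs scaled to CPM, counts per 1000000 UMIs. Intervals are exact Poisson for sums, Clopper-Pearson for shares, Katz for share ratios and conditional binomial for CPM ratios. With 1 library per group there is no replicate and no test. A gene was counted as different at 1.5-fold where either library had 5 CPM or more of it.

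Shares were also thinned to 2000 UMIs per cell: in the gated groups the gate was applied after thinning, and in the other sets membership was set before it. All 10 receptor genes were named, and list genes were examples by largest ratio with at least 30 CPM. V segments were named by UMIs, and the rule was widened to Tcrg-V symbols once those were seen. The receptor genes and lists were chosen with earlier results of these data known. One list symbol was not matched in the gene table. Python 3.11.15, numpy 2.4.6, scipy 1.17.1, pandas 2.3.3, scanpy 1.11.5, matplotlib 3.10.9 and edgeR 4.0.16 (its TMM scaling only) were used. The ratio and interval code was tested on simulated data. Sequences come from the GRCm38 genome and GENCODE M21. Some results are not reported here.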

Additional observations from a re-analysis of the deposited data

How the results depend on the processing

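Over 11 alternatives, the log2 ratio of the co-detection share (LYZKL over WTKL) ran from 0.28 to 0.41 in Cd8a-positive cells, from -0.23 to 0.13 in Cd4-positive, from -0.19 to 0.13 in Il17a-positive and from -0.09 to 0.29 in Xcl1-positive cells. Of these 44 values, 36 stayed within the counting interval and 8 moved. Thinning to 2000 UMIs gave -0.23 in Cd4-positive, -0.19 in Il17a-positive and -0.070 in Xcl1-positive cells. Requiring at least 2 UMIs for detection gave 0.13 in Cd4-positive, 0.28 in Cd8a-positive and 0.038 in Xcl1-positive cells. A gate of at least 2 UMIs gave -0.043 in Il17a-positive and -0.086 in Xcl1-positive cells. The cause of these moves was not tested. Of 442 CPM ratios, 380 stayed within their interval, 62 moved and 0 of those past 1.5-fold changed sign. Trdc in Cd8a-positive cells, at log2 0.84, fell to 0.08 with 1153 and 1447 likely doublets removed and to 0.04 with a gate of at least 2 UMIs. The mean of per-cell CPM turned Tcrg-C1 to -0.33 in Cd8a-positive and -0.39 in Xcl1-positive cells. At this depth a missing UMI does not show that a cell lacks a transcript, and Trdc and Sox13 rest on few UMIs. No paired analysis was possible because each group is 1 library with no replicate number.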
